A study of Mus musculus with 4 samples.

Results

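The apelin receptor axis consists of a receptor, Aplnr, and its pair of peptide ligands, Apln (apelin) and Apela (also called Elabela or Toddler). These 3 genes were taken by symbol from a table of 27998 genes, and each had 1 row. Their expression was followed through Mesp1-lineage cells of the mouse embryo by single-cell RNA sequencing. Embryos carried Mesp1Cre and a Rosa26-GFPflox reporter allele on a Swiss Webster background, and the living GFP-positive cells were sorted. Because the reporter is permanent once Mesp1, an early mesoderm gene, has driven Cre, the sorted cells included every descendant of that mesoderm in the dissected piece, endothelium and blood among them. Of the 4 libraries, 2 were early, of embryonic day (E) 8.0 and of E8.25, and 2 late, of E9.5 and of E10.5, each made from pooled embryos of either sex and without a replicate. The upper part of the body was dissected for the early pair, and heart plus pharyngeal apparatus for the late pair, so stage and dissected region cannot be told apart between the early and the late pair.

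Aplnr is a G protein-coupled receptor. Apela is its ligand during gastrulation and early heart formation, when the receptor helps mesodermal progenitors to migrate and to enter the cardiac programme. Apelin is best known as the ligand made by sprouting endothelium, and in the developing coronary and systemic vasculature Aplnr is a textbook gene of veins and their capillary sprouts.

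In the mouse assembly GRCm38.p6, the mm10 family used for alignment, Aplnr (ENSMUSG00000044338) lies on chromosome 2 from 85136360 to 85139923, Apln (ENSMUSG00000037010) on chromosome X from 48025146 to 48034853, and Apela (ENSMUSG00000079042) on chromosome 8 from 65028417 to 65037336. All 3 are protein-coding genes. An older annotation gives the identifier of the Apela row to Trim61, which lies on chromosome 8 from 65012976 to 65018688 and has no row of its own in the files. Whether Trim61 molecules were counted in the Apela row was not tested.

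Cells were assigned to compartments by marker genes that did not include the members. A cell counted as endothelial with at least 4 of 8 detected markers (Pecam1, Cdh5, Esam, Tie1, Tek, Emcn, Egfl7 and Cldn5), and as a cardiomyocyte with at least 5 of 8 sarcomere and chamber genes. Cardiac progenitors were cells with Isl1 together with Nkx2-5 or Mef2c that met no blood, endothelial, cardiomyocyte or epithelial gate, and the remaining cells formed the other mesoderm. The 4 libraries, in order of stage, held 500, 201, 222 and 396 endothelial cells, 973, 402, 739 and 808 cardiac progenitors, 166, 26, 342 and 159 cardiomyocytes, and 5271, 1900, 2602 and 5064 cells of other mesoderm. Blood, taken as a rough guide to free RNA in the droplets, held 155, 337, 15 and 1084 cells. Whether blood cells express the members themselves was not tested. The summed level of the endothelial list was 1291 to 2106 CPM (UMIs in every 1000000) in endothelial cells and 28.5 to 145 CPM elsewhere. Retained cells had a median of 15205 to 35216 UMIs (distinct captured molecules), and pairs of libraries shared 16 to 88 cell barcodes, at most 1.39% of either library.

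Levels are CPM of the summed cells, given in order of stage (E8.0, then E8.25, E9.5, E10.5) unless a stage is named. Because the 3′ end of each transcript was counted, levels are compared between cells and stages for 1 gene and not between genes. Intervals are exact 95% Poisson intervals and, like those of ratios and shares, cover counting error only. With 1 library per stage no difference between stages was tested, and counting intervals are given instead.

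Aplnr was high in cardiac progenitors at E8.0 and low there at E10.5. In the sum of all endothelial cells its level at E10.5 was close to that at E8.0. In cardiac progenitors Aplnr measured 97.5 CPM (interval 93.5 to 102), 69.0 CPM (64.9 to 73.2), 27.7 CPM (25.0 to 30.6) and finally 1.41 CPM (0.848 to 2.20). Each stage was below the one before it, beyond the intervals, and the E10.5 value rested on 19 UMIs. The level at E10.5 was 69.2-fold lower than at E8.0, a log2 ratio of -6.11 (95% interval -6.85 to -5.47), and the step from E9.5 to E10.5 alone was 19.7-fold. In the same comparison 5.07% of all genes were at least 2-fold lower in cardiac progenitors. From these same libraries the study named Aplnr as a progenitor gene and reported its fall with stage in a progenitor population defined by clustering. This course is therefore a description of them and not independent evidence. By in situ hybridization of whole embryos, the study also reported that Aplnr, as an early marker of that population, was not seen at E10.5.

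Endothelial cells held 134 CPM (127 to 141), 131 CPM (123 to 141), 77.4 CPM (69.0 to 86.6) and 120 CPM (112 to 128). Only E9.5 stood clearly apart, and between the first and the last library the log2 ratio was -0.16 (-0.28 to -0.04), a level 1.12-fold lower, where 6.05% of all genes were at least 2-fold lower. Other mesoderm followed the cardiac progenitors from a lower start, with 43.0, 41.9, 8.55 and 1.35 CPM, which made E10.5 31.8-fold lower than E8.0, where 7.11% of all genes were at least 2-fold lower. Cardiomyocytes held 37.1, 45.8, 1.94 and 2.21 CPM. Blood held 4.26, 5.89, 0 and 0.332 CPM, the E9.5 value coming from 15 cells. Over all cells the level was 56.3, 44.9, 15.5 and 7.96 CPM, and without blood, whose share of cells differed between libraries, 58.3, 52.9, 15.6 and 10.3 CPM. In all cells E10.5 was 7.08-fold below E8.0, beside 8.19% of genes at least 2-fold lower and 17.9% at least 2-fold higher.

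**Figure D1:**
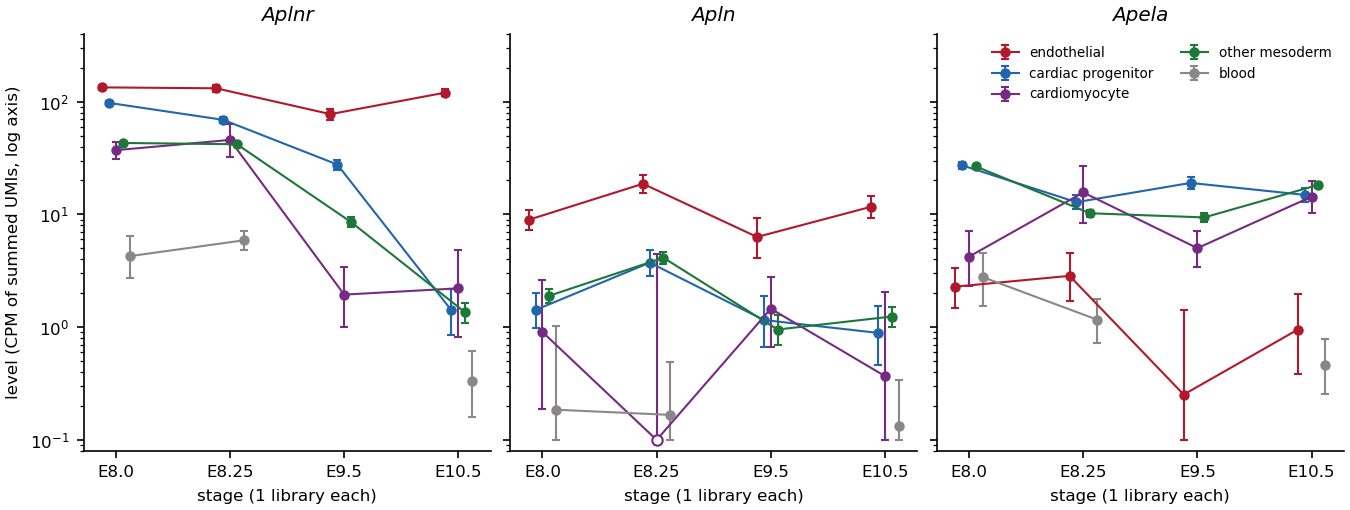
Levels of Aplnr, Apln and Apela (CPM of summed UMIs, log axis) by stage in marker-gated compartments, 1 library per stage. Error bars are exact 95% Poisson intervals, cut at the lower edge of the axis, and open symbols at that edge mark 0 UMIs. The Aplnr line of cardiac progenitors goes from 97.5 to 1.41 CPM, while that of endothelial cells stays between 77.4 and 134 CPM.

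The Aplnr UMIs therefore sat in different cells at the start and at the end of the series. Of 8541 Aplnr UMIs at E8.0, endothelial cells held 17.1%, cardiac progenitors 26.5% and other mesoderm 54.1%. At E8.25 the shares of 4760 UMIs were 17.4%, 22.1% and 57.2%, and at E9.5 those of 1097 UMIs were 28.0%, 34.9% and 36.0%. At E10.5 endothelial cells, 5.26% of the retained cells, held 86.6% of 1018 Aplnr UMIs, cardiac progenitors 1.87% and other mesoderm 9.82%.

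**Figure D2:**
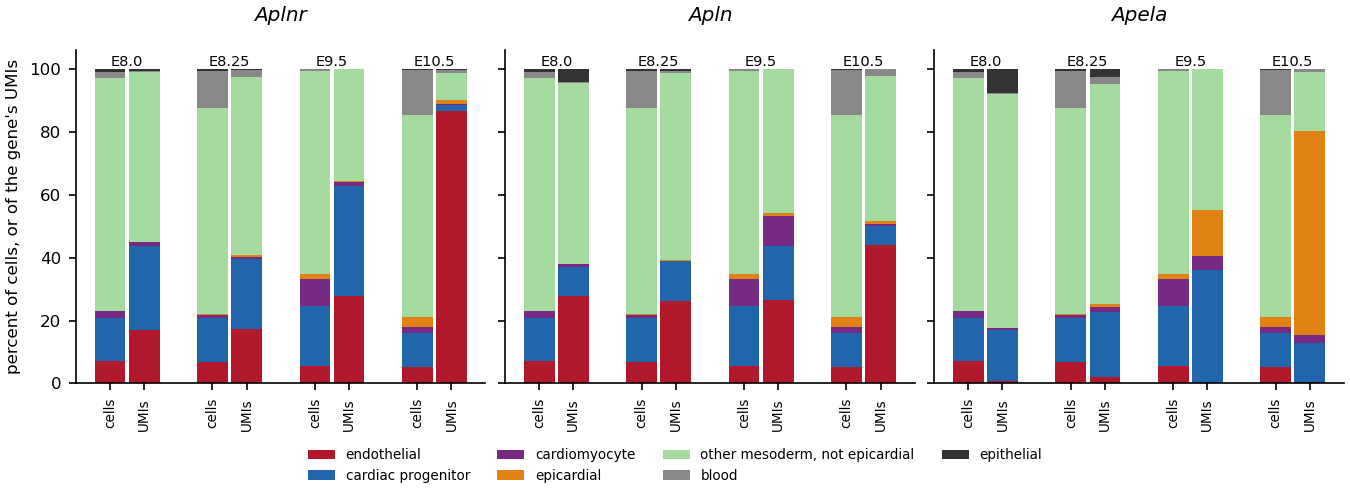
Paired stacked bars per stage: the share of retained cells (percent) in each compartment beside the share of UMIs of Aplnr, Apln and Apela (percent) found in it, 1 library per stage. Endothelial cells made up 5.26% of cells and 86.6% of Aplnr UMIs at E10.5.

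Compartments were compared with each library as a block, so that the 4 libraries gave 1 difference each, using the quasi-likelihood test of edgeR, adjusted over all genes tested by the Benjamini-Hochberg method. Relative to other mesoderm, Aplnr was higher in endothelial cells by 3.06 ± 0.83 (log2 fold ± SE, adjusted p = 0.0301) and in cardiac progenitors by 1.07 ± 0.18 (adjusted p = 0.0246). In these comparisons 39.0% and 4.91% of all genes passed the threshold of 0.05, and 21.0% and 2.19% of all genes passed as higher. The endothelial level exceeded that of other mesoderm in 4 of 4 libraries, by 3.11-, 3.13-, 9.05- and 88.8-fold. The level in cardiac progenitors exceeded it 2.27-fold at E8.0, 1.65-fold at E8.25 and 3.24-fold at E9.5, whereas the E10.5 ratio was 1.04 with a log2 interval from -0.73 to 0.78. The call for cardiac progenitors ended without the E8.0, E8.25 or E9.5 library, and with DESeq2 (log2 fold 0.95 ± 0.32, adjusted p = 0.0532). The endothelial call ended without the E9.5 library (2.97 ± 1.07, adjusted p = 0.105).

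Endothelial cells and cardiac progenitors themselves did not pass the test for Aplnr over the 4 libraries (1.86 ± 0.83, adjusted p = 0.119), a comparison in which 41.4% of all genes passed. The library differences ran from 1.37-fold at E8.0 through 1.90-fold and 2.80-fold to 85.2-fold at E10.5, each time with the endothelial cells higher. Without the E10.5 library the difference was 1.03 ± 0.19 and passed (adjusted p = 0.0120). The change of this difference from the early to the late pair was 2.44 ± 0.98, which did not pass over all genes (adjusted p = 0.202), where 5.43% of genes did. The estimate was 5.75 without E9.5 and 0.80 without E10.5, each then resting on 1 late library. Against cardiomyocytes, cardiac progenitors were higher by 1.48 ± 0.45 (adjusted p = 0.0319, 37.4% of genes called), in 3 of 4 libraries. At E10.5 the 2 compartments held 1.41 and 2.21 CPM, with overlapping intervals, and the call ended without E8.0 (1.68), without E9.5 (0.86) and with DESeq2 (1.18).

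Counted as cells, 61.6%, 56.5%, 18.8% and 2.10% of cardiac progenitors had at least 1 Aplnr UMI. Depth differed between libraries, and with every cell thinned to 8000 UMIs the shares were 41.7%, 28.6%, 12.3% and 1.08%. Blood gave 11.6%, 20.2% and 0.923% unthinned at E8.0, E8.25 and E10.5 and 2.60%, 4.17% and 0.190% thinned. Its cells were deeper, with medians of 35058, 52410 and 28407 UMIs against 23030, 35830 and 16099 in cardiac progenitors. At E10.5 the progenitors, with at most 2 Aplnr UMIs in any of 808 cells, were still 4.24-fold above blood in CPM (1.41 against 0.332 CPM, log2 ratio 2.08, 0.91 to 3.35). Counted as cells with a UMI, the same comparison was 2.10% against 0.923%. Blood at E8.25 held up to 21 Aplnr UMIs in a cell, with a median of 1 in the cells that held any. The source of these UMIs was not tested.

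In endothelial cells the share with a UMI was 83.6%, 83.6%, 32.4% and 35.4%, and 62.2%, 56.0%, 27.5% and 29.4% thinned. In the late libraries a smaller share of endothelial cells held Aplnr. Those that did held a mean of 3.50, 4.93, 4.26 and 6.30 Aplnr UMIs per cell, and 1.79, 1.88, 2.18 and 3.18 at equal depth, where the late values were the higher ones. The level was higher in cells that showed more endothelial markers. At E10.5, endothelial-gated cells with 4 detected markers held 5.25 CPM and those with all 8 held 226 CPM, and at E9.5 the values were 1.73 and 169 CPM. At E8.0 the corresponding values were 90.8 and 176 CPM. Cells just outside the gate, other mesoderm with 3 endothelial markers, held 66.9, 37.8, 5.66 and 1.09 CPM, against 44.4, 52.4, 9.02 and 1.24 CPM in other mesoderm with none.

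Within the endothelium, the late Aplnr level was highest in cells with venous and without arterial genes. This split was made after the Aplnr values had been seen and is a description without a test. Cells with at least 2 of Nr2f2, Ephb4 and Nrp2, genes known from veins, and fewer than 2 arterial genes held 127 CPM (116 to 139), 125 CPM (114 to 136), 164 CPM (143 to 187) and 222 CPM (206 to 240). Cells with at least 2 of the arterial genes Gja4, Gja5, Dll4, Hey1 and Unc5b, and fewer than 2 venous ones, held 156 CPM (139 to 173), 160 CPM (128 to 197), 16.4 CPM (8.76 to 28.1) and 20.2 CPM (13.4 to 29.2). Cells with both sets held 140, 153, 23.5 and 59.4 CPM and cells with neither 112, 109, 48.0 and 70.0 CPM. At E8.0 and E8.25 the venous-gene cells were at 0.815 and 0.780 times the level of the arterial-gene cells. At E9.5 they were 9.97-fold higher, a log2 ratio of 3.32 (2.51 to 4.25), and at E10.5 11.0-fold higher, at 3.46 (2.92 to 4.06). The arterial-gene sums were small, with 98, 23, 50 and 80 cells, and median depths of both sets lay between 15403 and 33908 UMIs. At E10.5 the 157 venous-gene cells, 2.09% of the library, held 65.2% of all Aplnr UMIs.

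Nfatc1, a transcription factor of the endocardium, divided the endothelial cells in the same direction at the late stages. Endothelial cells with Nfatc1 held 127, 137, 40.0 and 46.4 CPM of Aplnr, and those without it 138, 129, 107 and 174 CPM. The sums were within counting error of each other at E8.0 and E8.25, and at E9.5 and E10.5 those with Nfatc1 were at 0.374 and 0.268 times the level of the rest. Over the 4 libraries the difference of -0.72 ± 0.25 did not pass (edgeR adjusted p = 0.586), in a comparison that called 0.0594% of genes.

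**Figure D3:**
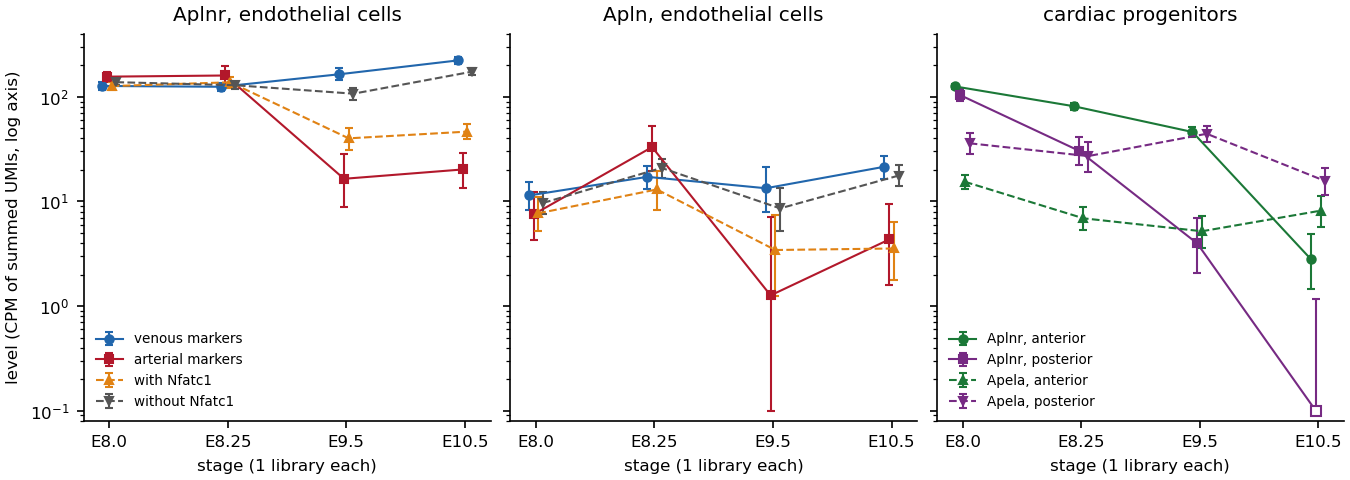
Levels (CPM, log axis) by stage in subsets of endothelial cells, split by venous and arterial genes and by Nfatc1, and of cardiac progenitors, split by Tbx1 and Tbx5, 1 library per stage. Error bars are exact 95% Poisson intervals cut at the lower axis edge, and open symbols at that edge mark 0 UMIs. Aplnr of the venous-gene and arterial-gene lines parts after E8.25, to 222 and 20.2 CPM at E10.5.

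Among cardiac progenitors, those with Tbx1 and without Tbx5 were taken as anterior, and those with Tbx5 and without Tbx1 as posterior, after the genes that mark the anterior and posterior second heart field. The study also reports strong Tbx1 in branchiomeric muscle progenitors. Such cells were not removed from the anterior set if they met the progenitor gate. Anterior progenitors held 125 CPM (118 to 133), 81.1 CPM (75.5 to 87.1), 46.0 CPM (40.9 to 51.6) and 2.79 CPM (1.44 to 4.88). Posterior progenitors held 104 CPM (90.9 to 118), 30.6 CPM (22.2 to 41.0), 3.97 CPM (2.05 to 6.93) and 0 CPM. The anterior cells were higher by 1.21-, 2.65- and 11.6-fold at the first 3 stages. At E10.5 none of 172 posterior cells had an Aplnr UMI, which allows a share of cells with a UMI of up to 1.74% and sets no limit on cells that express the gene below detection. Against the floor of 3 UMIs in that sum, the E10.5 level was at least 108-fold lower than at E8.0. Over the libraries the anterior cells differed by 1.32 ± 0.41, which did not pass (edgeR adjusted p = 0.119, 5.36% of genes called), and without the E8.0 library the difference was 2.31 ± 0.39 and passed (adjusted p = 0.0198).

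Apln, the ligand named apelin, was sparse in all libraries and higher in endothelial cells than in cardiac progenitors or other mesoderm. Endothelial cells held 8.96 CPM (7.28 to 10.9), 18.7 CPM (15.5 to 22.4), 6.31 CPM (4.08 to 9.31) and 11.7 CPM (9.36 to 14.4), from 98, 118, 25 and 86 UMIs. Cardiac progenitors held 1.42, 3.73, 1.16 and 0.889 CPM and other mesoderm 1.90, 4.12, 0.953 and 1.24 CPM. The endothelial intervals lay above both at each stage, and the E8.25 library was the highest for Apln in all 3 compartments. Blood held 0 to 0.185 CPM. The small epithelial-gated group at E8.0, 53 cells, held 9.92 CPM (5.42 to 16.6), with 11 of its 14 UMIs in 1 cell. The E10.5 to E8.0 ratio of endothelial cells was not distinguishable from none, at a log2 value of 0.38 (-0.05 to 0.82).

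Apln was higher in endothelial cells than in cardiac progenitors by 2.83 ± 0.26 (edgeR adjusted p = 0.000566) and than in other mesoderm by 2.66 ± 0.23 (adjusted p = 0.000559), in 4 of 4 libraries each. The library folds over cardiac progenitors were 6.30, 5.01, 5.45 and 13.2. Cardiac progenitors did not differ detectably from other mesoderm (-0.23 ± 0.17, edgeR adjusted p = 0.535) or from cardiomyocytes (0.49 ± 0.56, adjusted p = 0.523). Cardiomyocytes held 0.905, 0, 1.46 and 0.368 CPM of Apln, so near the floor that the lack of a call against them decides little. The late pair of libraries did not differ detectably from the early pair in the endothelial excess over progenitors (0.68 ± 0.46, adjusted p = 0.442).

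Apln UMIs were found in 10.8%, 28.4%, 8.56% and 10.9% of endothelial cells, and in 6.96%, 15.5%, 4.83% and 5.22% when thinned. Blood gave at most 0.890% unthinned and 0.649% thinned. Within the endothelium, venous-gene cells held 11.4, 17.2, 13.4 and 21.4 CPM and arterial-gene cells 7.50, 33.0, 1.26 and 4.33 CPM. The arterial-gene values at E9.5 and E10.5 rested on 1 and 6 UMIs. Cells with Nfatc1 held 7.70, 13.0, 3.43 and 3.55 CPM and those without it 9.66, 20.9, 8.58 and 17.6 CPM, lower with Nfatc1 in 4 of 4 libraries, a difference of -1.03 ± 0.28 that did not pass (edgeR adjusted p = 0.335). Like Aplnr, Apln was higher in endothelial cells with more markers, from 2.63 CPM with 4 markers to 27.1 CPM with 8 at E10.5.

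Apela, the second ligand, had the reverse distribution: it was found in mesoderm and cardiac progenitors and was low in the endothelium. Cardiac progenitors held 27.2 CPM (25.1 to 29.4), 12.8 CPM (11.1 to 14.8), 19.0 CPM (16.8 to 21.5) and 14.9 CPM (12.9 to 17.1). The E8.0 library was the highest and the other 3 lay between 12.8 and 19.0 CPM. Other mesoderm held 26.6, 10.2, 9.40 and 18.3 CPM and cardiomyocytes 4.22, 15.7, 5.02 and 14.4 CPM. Endothelial cells held 2.29, 2.85, 0.252 and 0.952 CPM, and blood 2.78, 1.17, 0 and 0.465 CPM. At E8.0 the blood UMIs came from 7 cells, 1 of which held 9, and at E9.5 blood had only 15 cells. The endothelial value was above that of blood at E8.25 and E10.5, but Apela was then detected in only 10 and 7 endothelial cells. Whether these values differ beyond counting error was not tested. Apela in cardiac progenitors at E10.5 was 1.83-fold below E8.0 (log2 ratio -0.87, -1.11 to -0.64), beside the 69.2-fold of Aplnr in the same cells.

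Relative to cardiac progenitors, Apela was lower in endothelial cells by 3.36 ± 0.40 on the log2 scale (edgeR adjusted p = 0.00143), and relative to other mesoderm by 3.22 ± 0.41 (adjusted p = 0.00226), in 4 of 4 libraries each. Cardiac progenitors and other mesoderm did not differ detectably (0.23 ± 0.19, edgeR adjusted p = 0.567), and the sign of the library differences was not the same in all. Other mesoderm was higher only at E10.5. There it included epicardial-marker cells at 208 CPM, described below, while its cells that met no further gate held 5.92 CPM. Cardiac progenitors against cardiomyocytes gave 1.08 ± 0.43 (adjusted p = 0.0815), a difference that passed without E10.5 (1.57 ± 0.43, adjusted p = 0.0277). In posterior progenitors Apela was higher than in anterior ones in 4 of 4 libraries, with 35.9, 27.1, 44.3 and 15.7 CPM against 15.4, 6.89, 5.19 and 8.15 CPM. Cells with the epicardial markers described below were not removed from these sets, and their part in the difference was not tested. The anterior minus posterior difference of -1.76 ± 0.30 passed (adjusted p = 0.0117), among 2.36% of genes called lower in anterior cells. That call ended without the E8.25 library (-1.71 ± 0.37, adjusted p = 0.0556). Between the anterior and posterior sets the receptor and Apela thus had values of opposite order. Aplnr was higher in the anterior sums at all stages and Apela in the posterior ones, though only the difference of Apela passed. Progenitors with both Tbx1 and Tbx5 numbered 50, 30, 38 and 46. They held 203, 95.4, 15.3 and 0 CPM of Aplnr and 19.6, 17.6, 23.0 and 26.1 CPM of Apela. Those with neither held 55.5, 37.5, 18.1 and 1.39 CPM, and 37.8, 22.4, 21.3 and 17.9 CPM. Aplnr was thus highest in the cells with both at E8.0 and E8.25. Apela was highest in those with neither at E8.0 and in those with both at E10.5.

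**Figure D4:**
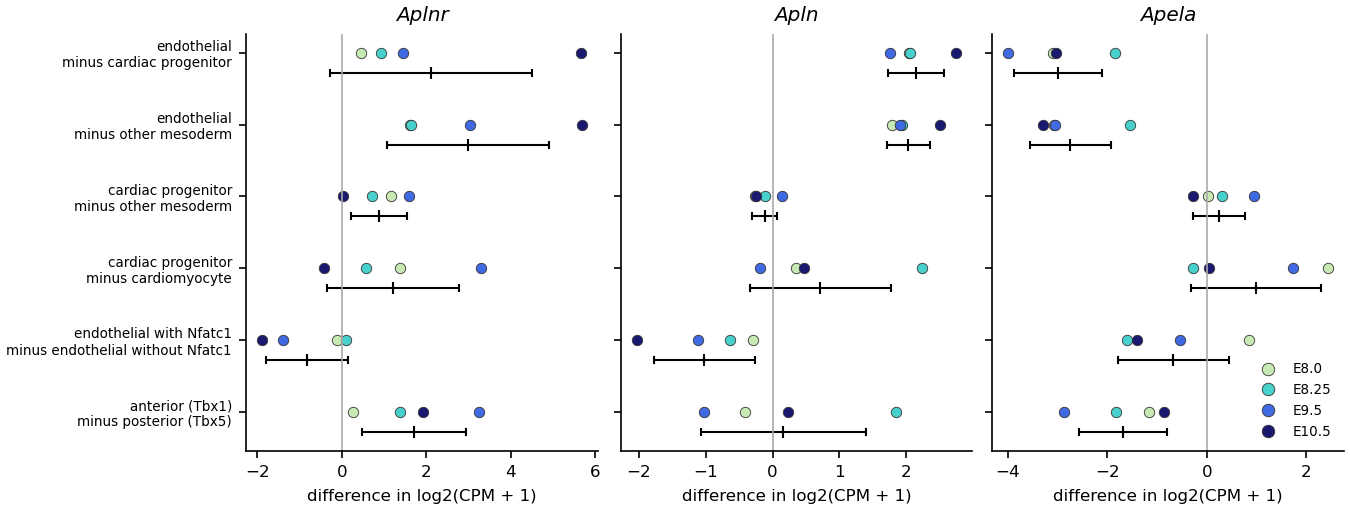
Differences in log2(CPM + 1) between compartments for Aplnr, Apln and Apela, each point 1 library and each black bar the mean ± SD over 4 libraries. Endothelial minus cardiac progenitor is above 0 in all libraries for Aplnr (0.45 to 5.65) and Apln, and below 0 in all for Apela (-4.00 to -1.85).

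Inside the broad compartment of other mesoderm, Apela differed between marker-gated groups. Cells that met no further gate held from 15.9 CPM at E8.0 down to 5.92 CPM at E10.5, and 31.5% and 34.6% of all Apela UMIs at E8.25 and E9.5, more than any gated group of other mesoderm in those libraries. Cells with at least 3 of the epicardial markers Wt1, Upk3b, Tbx18 and Upk1b held 82.5 CPM (67.7 to 99.7) in the E9.5 library, and 208 CPM (195 to 221) in that of E10.5. The log2 ratio of the later to the earlier was 1.33 (1.04 to 1.63), and the level was 4.34- and 13.9-fold that of the cardiac progenitors of the same library. At E10.5 these 219 cells, 2.91% of the library, held 65.1% of all 1615 Apela UMIs. Apela was detected in 74.0% of them (58.8% thinned), with up to 35 UMIs in a cell, against 1.11% of blood cells (0.285% thinned), whose median depth was 28407 against 23851 UMIs. At E8.25 only 11 such cells were present.

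At E8.0 the Apela-rich groups were others. Cells with at least 2 of Tbx4, Pitx1 and Hoxa13, genes active in the allantois, held 53.6 CPM (50.7 to 56.6) in 1010 cells and 33.6% of the 3831 Apela UMIs. Cells with caudal genes (Cdx1, Cdx2, Cdx4 and T, at least 2 of them) held 47.0 CPM in the first library and 37.1 CPM in the second. The highest level at E8.0, 206 CPM (183 to 231), was in 53 epithelial-gated cells, with up to 58 UMIs in a cell. Epithelial cells are not a usual Mesp1 descendant, and the summed epithelial list was at 71.9 to 600 CPM in other mesoderm. The part of such cells in the Apela level of other mesoderm was not tested. Paraxial mesoderm (Meox1, Meox2, Tcf15, Pax3 and Uncx, at least 3) held 2.14, 2.51, 0 and 0 CPM, and cells with branchiomeric muscle genes 4.12, 7.84, 5.16 and 1.24 CPM, each below the cardiac progenitors of its library. Aplnr had another order: at E8.0 paraxial cells held 61.1 CPM of it, allantois-like cells 15.4 CPM and epithelial-gated cells 38.3 CPM, and the epicardial-marker cells held 3.82 and 2.17 CPM at E9.5 and E10.5.

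**Figure D5:**
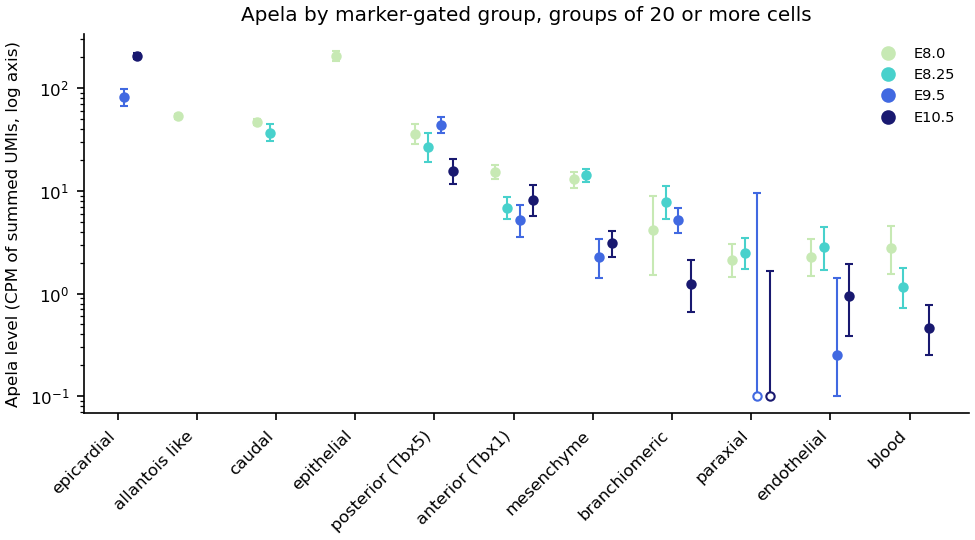
Apela levels (CPM, log axis) in marker-gated groups by stage, 1 library per stage, groups under 20 cells left out. Error bars are exact 95% Poisson intervals cut at the lower axis edge, and open symbols at that edge mark 0 UMIs. Epicardial-marker cells at E10.5 (208 CPM) and epithelial-gated cells at E8.0 (206 CPM) are the highest groups drawn.

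The receptor and apelin were often detected in the same endothelial cell. Of endothelial cells with an Apln UMI, 48 of 54, 54 of 57, 17 of 19 and 37 of 43 also held Aplnr. These are shares of 88.9%, 94.7%, 89.5% and 86.0%, beside 83.6%, 83.6%, 32.4% and 35.4% of all endothelial cells. At the early stages most endothelial cells held Aplnr whether or not they held Apln, whereas at the late stages the Apln cells were mostly a part of the Aplnr cells. Venous-gene cells alone gave 12 of 13 and 28 of 29 in the late libraries, where 59.7% and 59.2% of venous-gene cells held Aplnr. Detection of either gene depends on the depth of a cell, and the part of depth in these shares was not tested.

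Apela and its receptor were also counted in the same cells. Among cardiac progenitors with Apela, 203 of 336, 60 of 100, 13 of 126 and, at E10.5, 0 of 115 held Aplnr. The first 3 shares, 60.4%, 60.0% and 10.3%, stood beside 61.6%, 56.5% and 18.8% of all progenitors with Aplnr, and at E10.5 only 17 of 808 progenitors held it. Over all retained cells, 45.4%, 60.0%, 10.6% and 2.24% of cells with Apela held Aplnr, beside 48.3%, 52.0%, 11.8% and 3.44% of all cells. In the last library 12 of 7525 cells held both.

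Of the genes known for handling or answering the ligands, 26 were listed in the files, and 21 of them were tested between endothelial cells and cardiac progenitors. In that comparison 9 were higher and 2 lower in endothelial cells (edgeR adjusted p under 0.05), beside 22.2% and 19.1% of all genes, with a median log2 difference of 0.52. Among G proteins, arrestins and receptor kinases, 6 of 9 were higher. They included Gnai2, an inhibitory G protein subunit of the kind Aplnr couples to, at 303, 373, 567 and 400 CPM against 162, 159, 247 and 176 CPM (1.23 ± 0.07, adjusted p = 8.84e-05). Arrb1 and Arrb2, the arrestins that take up activated receptors, were higher by 1.08 ± 0.15 and 1.01 ± 0.15, and the kinases Adrbk1 (Grk2) and Grk5 by 0.75 ± 0.13 and 0.70 ± 0.22, the call of Grk5 being lost with DESeq2 (adjusted p = 0.0714) and without E8.0, E9.5 or E10.5 (adjusted p = 0.145, 0.139 and 0.0825). Gna13 was higher by 0.55 ± 0.10. Gnai1, Gnai3 and Gnaq did not pass.

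Among genes downstream of the receptor in endothelium, Klf2, a flow-responsive transcription factor, was at 48.2, 56.7, 365 and 287 CPM in endothelial cells and at 2.53 to 4.22 CPM in cardiac progenitors (5.29 ± 0.65, edgeR adjusted p = 0.00160). Nos3, the endothelial nitric oxide synthase, was at 20.9, 19.0, 28.8 and 35.0 CPM against 0.434 to 1.26 CPM (4.88 ± 0.26, adjusted p = 8.88e-05). Klf4, Hdac4 and Hdac5 did not pass in this comparison. The log2 difference of endothelial cells minus progenitors was larger in the late than in the early pair for Klf2 (2.97 ± 0.28, edgeR adjusted p = 0.00258). The same held for its relative Klf4 (3.32 ± 0.43, adjusted p = 0.00788). The difference was smaller in the late pair for Hdac5, a histone deacetylase (-1.77 ± 0.23, adjusted p = 0.00760). These 3 were the genes of the list called among 21 tested, where 2.24% of all genes were called with a larger and 3.19% with a smaller late difference.

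The proteases that make or cut the ligands differed too. Furin, a convertase that processes proapelin, was at 15.2, 13.8, 30.3 and 41.0 CPM in endothelial cells and 13.5, 9.10, 13.1 and 23.2 CPM in cardiac progenitors (0.80 ± 0.17, edgeR adjusted p = 0.0126). Mme (neprilysin), a peptidase that degrades apelin, was at 1.74, 3.80, 5.80 and 5.99 CPM in endothelial cells and 22.9, 16.6, 23.6 and 22.0 CPM in cardiac progenitors. It was lower in the endothelium (-2.30 ± 0.31, adjusted p = 0.00221) and higher in cardiac progenitors than in other mesoderm (1.37 ± 0.13, adjusted p = 0.00478), as was the convertase Pcsk6 (0.80 ± 0.14, adjusted p = 0.0275). Between cardiac progenitors and other mesoderm 2 of 21 list genes were higher and 1 lower, beside 2.19% and 2.71% of all genes, the latter being Ackr3, a chemokine receptor (-0.96 ± 0.16, adjusted p = 0.0228).

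Of the related receptors, the angiotensin receptor gene Agtr1a was lower in endothelial cells than in cardiac progenitors (-3.81 ± 0.58, edgeR adjusted p = 0.00349) at 0 to 0.183 CPM against 0.940 to 2.20 CPM. Cxcr4, the receptor of Cxcl12, was higher in anterior than in posterior progenitors (1.68 ± 0.40, adjusted p = 0.0450), and Ackr3 (-1.80 ± 0.32, adjusted p = 0.0134) and Furin (-0.79 ± 0.16, adjusted p = 0.0241) were lower, out of 17 list genes tested, beside 3.0% of all genes called higher and 2.36% lower. With DESeq2 the calls of Cxcr4 (adjusted p = 0.0543) and Furin (adjusted p = 0.0585) were lost. Endothelial cells against other mesoderm gave 10 list genes higher and 2 lower of 22, beside 21.0% and 18.0% of all genes. Cardiac progenitors against cardiomyocytes gave 2 higher, Cxcr4 and Hdac4, and 6 lower of 20, beside 18.8% and 18.6% of all genes. Between endothelial cells with and without Nfatc1 edgeR called 0 of 19 (0.0594% of all genes), with 7 at an unadjusted p under 0.05, and DESeq2 called 0.

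Finally, the genes whose levels were most like those of each member were found over 19 sums of library and compartment, by Pearson's r of log2(CPM + 1) among genes with a mean of at least 5 CPM. The sums share libraries, depth and cell composition, so r is a description. For Aplnr they were Gchfr (r = 0.928), Rasgrp3 (0.906), Gm13889 (0.901), Sall3 (0.885) and Mogat2 (0.867). For Apln they were N4bp3 (0.953), Cdc42ep1 (0.927), Flt1 (0.922), Map3k11 (0.918) and Zfp69 (0.913), of which Flt1 encodes a receptor of VEGF. For Apela they were Sdk2 (0.935), Vasn (0.926), Elovl4 (0.918), Pik3r2 (0.914) and Ptpn13 (0.907). Over the same sums r was 0.70 between Aplnr and Apln, -0.03 between Aplnr and Apela and -0.28 between Apln and Apela.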

How the data were processed

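UMI counts per gene and cell were deposited by the authors as whole numbers without normalization, for barcodes called as cells. Per the labels and the study's methods, libraries were made with the 10x Genomics 3′ version 2 kit and aligned to mm10 with Cell Ranger 3.1.0. The deposited libraries held 7581, 2956, 4055 and 8070 cells and 168407965, 110213770, 74920880 and 142850521 UMIs in order of stage.

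Cells with at least 1000 genes and at most 10% mitochondrial UMIs were retained. The 459, 70, 131 and 517 cells with the highest Scrublet scores (scanpy 1.11.5) were removed as doublets, 0.8% per 1000 cells, since Scrublet's own threshold marked as few as 0.0247% of a library. This left 7118, 2884, 3921 and 7525 cells. Gates used detected markers in a fixed order (erythroid, macrophage, epithelial, endothelial, cardiomyocyte), with thresholds set from the distribution of markers per cell. Neither the gates nor the filters used the members. The members and lists were chosen with earlier results of these data known, and the venous list and 3 of the arterial genes were added after levels had been seen.

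UMIs were summed per library and compartment of at least 20 cells. edgeR 4.0.16 (TMM scaling, filterByExpr, quasi-likelihood test, library as block, R 4.3.3) was fitted over all genes with Benjamini-Hochberg adjustment at 0.05, and was tested on simulated data. DESeq2 1.42.0, library-size scaling, no filter, no block, stricter gates, gates on thinned cells and each library left out were alternatives. Levels carry exact Poisson intervals, ratios exact conditional binomial and shares Clopper-Pearson intervals of 95%, computed with Python 3.11.15 and scipy 1.17.1. For thinned shares, 501, 8, 249 and 803 cells under 8000 UMIs were left out. Beside the members, the genes named were those of the pathway list and the 5 with the highest Pearson r for each member. Mef2c was left out of the pathway list because it was part of a gate. The values of 1 other gene of that list are not reported here. Gene positions were taken from RefSeq (GRCm38.p6). Cells are not replicates, and differences over the 4 libraries mix stage with library.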

Additional observations from a re-analysis of the deposited data

Results flagged for a closer look

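The difference of Apela between endothelial cells and other mesoderm was -1.54 on the log2(CPM + 1) scale in the E8.25 library, with 2.85 CPM in endothelial cells and 10.2 CPM in other mesoderm. The other 3 libraries lay between -3.30 and -3.05, and the gap relative to the range, 0.858, was above Dixon's 95% critical value for 4 values. Of the 18 endothelial UMIs at E8.25, 14 were in the 39 cells with 4 detected endothelial markers, the lowest number the gate admitted. In this check of 18 sets of 4 differences, chance alone flags about 1 set in 20. The part of cells at the edge of the gate in that value was not tested.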

How the results depend on the processing

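Under the alternatives, 267 recomputed values kept their direction and side of the threshold. Of the rest, 35 lost a call or shrank as a count, 17 gained one, 5 were stage ratios that moved and 1 was counted as changed in sign. The endothelial Apln ratio of E10.5 to E8.0 and Apln late minus early, both given below, each changed sign under an alternative. With each stage held by 1 library, the pairing of compartments within a library carried most calls. Without the library block the numbers of genes called were 2492 for endothelial cells against cardiac progenitors, 2385 against other mesoderm, 2100 for progenitors against cardiomyocytes, 23 for anterior against posterior, 1 for Nfatc1 and 5 for the late minus early difference, and edgeR called 0 for progenitors against other mesoderm (367 at an unadjusted p under 0.05, while DESeq2 with the block called 803). The members' calls lost without the block were those of Aplnr against other mesoderm for progenitors (1.03) and endothelium (2.36) and against cardiomyocytes (1.27), and of Apela between anterior and posterior cells (-1.72). With DESeq2, Aplnr in progenitors missed the threshold against other mesoderm (0.95) and cardiomyocytes (1.18), 388 genes were called for late minus early and 1 for Nfatc1. Without the filter on low counts the calls were 248 for Nfatc1, 1130 for anterior against posterior and 1533 for late minus early, and 5 members' values then passed, namely Aplnr (-0.73) and Apln (-1.04) by Nfatc1, Aplnr anterior against posterior (1.33) and late minus early (2.47), and Apela in progenitors against cardiomyocytes (1.14). Stricter gates gave 16 genes for Nfatc1, brought Apela against cardiomyocytes past the threshold (1.87) and moved its E10.5 to E8.0 log2 ratio in progenitors to -0.54. Under gates on thinned cells, E8.25 had 14 endothelial cells with Nfatc1 and 5 posterior progenitors, so both comparisons rested on 3 libraries. They then gave 89 genes for Nfatc1 and 274 for anterior against posterior, with Apela there below the threshold (-1.39). The effect of the gates and that of the lost library cannot be told apart. The same gates moved the endothelial Apln ratio of E10.5 to E8.0 from 0.38 to -0.14. Leaving out haemoglobin, mitochondrial and ribosomal protein genes moved that ratio over all cells to -2.65 for Aplnr and -0.82 for Apela, and TMM-scaled totals moved Apela in other mesoderm to -0.70.

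With each library left out in turn, Aplnr ranged from 1.03 to 2.41 for endothelium against progenitors, from 0.89 to 1.24 for progenitors and from 2.20 to 3.64 for endothelium against other mesoderm, and from 0.86 to 1.87 for progenitors against cardiomyocytes. It ranged from 0.80 to 2.31 for anterior against posterior and from 0.80 to 5.75 for late minus early. Apln late minus early ranged from -0.024, without E10.5, to 1.27. Apela ranged from 0.63 to 1.57 against cardiomyocytes and from -2.03 to -1.34 for anterior against posterior. Genes called ranged from 165 to 585 for progenitors against other mesoderm, 2763 to 4192 for progenitors against cardiomyocytes, 2 to 67 for Nfatc1, 251 to 499 for anterior against posterior and 96 to 471 for late minus early. Scaling by library size alone gave 2131 genes higher and 3129 lower in endothelial cells than in progenitors (2697 and 2321 with TMM) with the corresponding split of anterior against posterior cells at 225 and 282 (308 and 242 with TMM). The causes were not tested. Thinning lowered 15 of 16 shares of cells with a UMI by more than their interval. Apela by Nfatc1 and Apln between anterior and posterior cells did not pass the filter and have no main value. Depth limits Apln most, with 94 to 448 UMIs per library.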
